A study of Mus musculus with 12 samples.

Results

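Liver mRNA of mice given triptolide together with crocin was compared with that of mice given triptolide alone, over every gene with enough reads to be tested. The comparison takes the 8 libraries labelled MTP + CR and MTP, of 12 in the study, and 15197 of the 55487 genes in the table passed the filter on low counts. MTP + CR mice (4) received triptolide at 300 μg/kg and crocin at 100 mg/kg, MTP mice (4) received triptolide at 300 μg/kg, and Control mice (4) received normal saline, each by daily gavage for 7 days. All were male Kunming mice of 7 to 8 weeks without arthritis, an outbred stock, and each mouse gave 1 liver library. No group received crocin without triptolide, and the study asked whether crocin lessens the liver toxicity of triptolide.

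Triptolide is a diterpenoid of the thunder god vine that blocks transcription through the XPB subunit of the general factor TFIIH, which opens DNA at the start of genes read by RNA polymerase II. Messages that are made at a high rate and turn over quickly are the first to be lost when this step is blocked, and the liver is among the organs that triptolide injures. Crocin is a carotenoid ester of saffron, which the gut converts to crocetin. Hepatocytes, the main cells of the liver, make the proteins of blood plasma, clear drugs and ammonia and form bile acids, while sinusoidal endothelial cells, Kupffer macrophages and stellate cells line and surround the blood channels.

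The summed counts ran from 15509226 to 17915632 in MTP + CR libraries and from 15655910 to 17861445 in MTP libraries. Levels are given as CPM, counts scaled to a common library size with edgeR's TMM factors, which ran from 0.824 to 0.990 in MTP + CR livers and from 1.07 to 1.52 in MTP livers (exact permutation test, two-sided p = 0.0286, the smallest that 4 against 4 allows). Summed markers of hepatocytes held 84309 to 126898 CPM in MTP + CR livers, against 38354 to 64987 CPM in MTP livers (exact permutation test, p = 0.0286). This sum includes Alb and is scaled with the TMM factors, which themselves separate the groups. In whole liver, fewer cells of a type and less RNA per cell cannot be told apart. On the first principal component, with 32.3% of the variance, MTP 1, MTP 2 and MTP 3 lay at 98.8, 50.4 and 85.7, whereas MTP 4 lay at 2.53, nearer to the MTP + CR livers at −20.7 to −81.5. MTP + CR 4 stood apart on the second component at −85.8, against −19.9 to 8.32 in the other MTP + CR livers. Markers of pancreas, fat and kidney summed to 163 to 239 CPM in MTP + CR livers, against 69.2 to 128 CPM in MTP livers (exact permutation test, p = 0.0286). Of these 8 markers, Cpa1 and Amy2a5, made by the pancreas, were at 0 in every MTP + CR and MTP library, and the part of the other markers in the results was not tested. Counts for several lists without MTP 4 and MTP + CR 4 are given below.

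Of the 15197 genes, 1892 (12.4%) passed the test with a fold change above 1.5 at an adjusted p under 0.05. Of these, 903 (5.94% of the genes tested) were higher in MTP + CR livers and 989 (6.51%) were lower. In CPM, all 4 MTP + CR livers lay above all 4 MTP livers for 6.92% of genes and below them for 7.99%. Over all genes tested the median log2 fold change was −0.03. Under total-count scaling that median was −0.54, with 414 genes higher and 4115 lower, and on log2(FPKM + 1) 437 were higher and 2939 lower, so that directions below are relative to the bulk of the genes. Fitted on the 8 libraries alone, without Control livers, the count was 320 (124 higher and 196 lower). The count of calls also rested on single livers. Omitting MTP 1 left 304 calls, omitting MTP 2 803, omitting MTP 3 261 and omitting MTP 4 gave 4009. Omitting MTP + CR 1, MTP + CR 3 or MTP + CR 4 left 405, 850 or 586, and omitting Control 3 left 1249. Without both livers numbered 4 it was 3369, of which 1721 were called in the same direction with all livers. For comparison, 820 genes (5.40%) were called between MTP and Control livers and 202 (1.33%) between MTP + CR and Control livers, with the same MTP, MTP + CR and Control libraries in several of these comparisons.

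**Figure D1:**
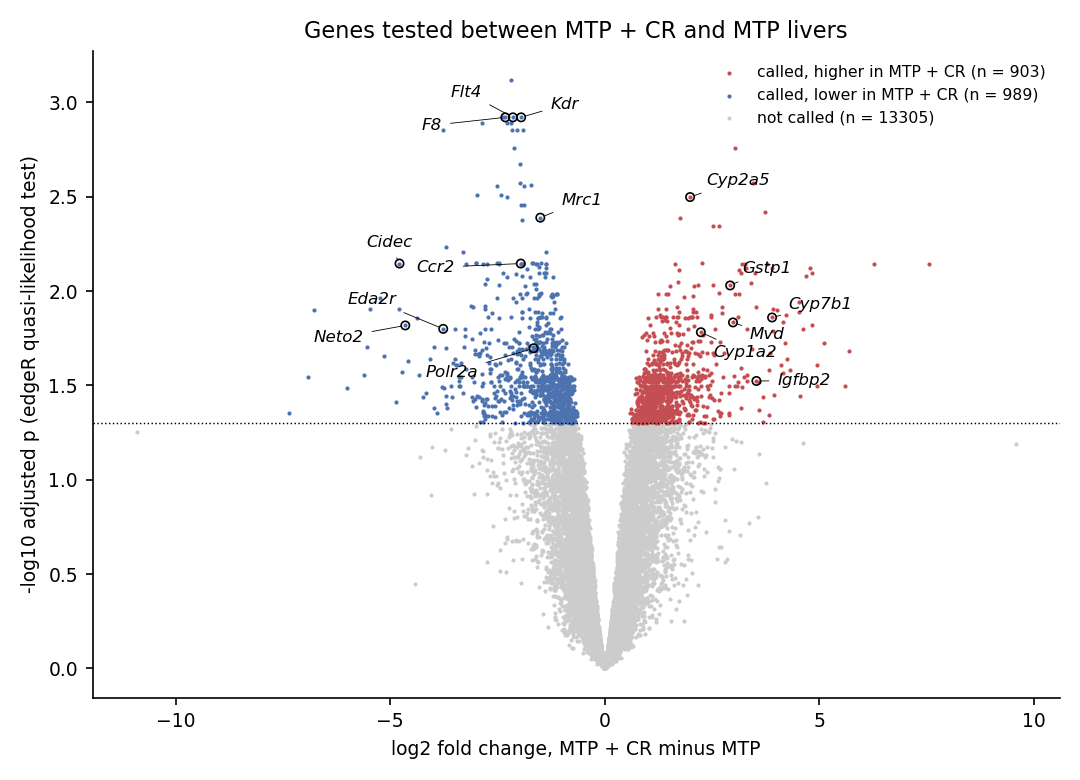
Log2 fold change of MTP + CR over MTP livers (x axis) against −log10 of the adjusted p of edgeR's quasi-likelihood test (y axis), 1 point per gene, for 15197 genes. The 903 genes called higher (red) and 989 called lower (blue) lie above the dotted line at an adjusted p of 0.05, and the smallest adjusted p values belong to genes that were lower, such as Kdr at −1.95.

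The largest rises among called genes of at least 5 CPM, predicted genes aside, whose groups did not overlap were those of Hsd3b5, Elovl3, Mup21, Slc22a28, Dbp, Slco1a1, Cyp7b1, mt-Ti, Cyp2a4 and Igfbp2, and the largest falls those of Ms4a3, Ctsg, Vcan, Chil3, F13a1, Cidec, Camk2b, Neto2, Mmp8 and Tnfrsf23. Hsd3b5, a hydroxysteroid dehydrogenase that male mice express in liver, had 117, 36.1, 135 and 4.38 CPM in MTP + CR livers, against 0.369, 0.222, 0 and 0.968 CPM in MTP livers (log2 fold change 7.57, standard error 1.2, edgeR adjusted p = 0.00714), with MTP + CR 4 far below the other MTP + CR livers. Elovl3, a fatty acid elongase, rose by 4.96, Mup21, a major urinary protein, by 4.55 and Slco1a1, an organic anion carrier, by 3.94 on the log2 scale. Slc22a28, another carrier, rose by 4.25 and mt-Ti, a transfer RNA of the mitochondrial genome, by 3.9. Chil3, a secreted protein of macrophages and granulocytes, had 1.7, 1.04, 2.0 and 3.02 CPM in MTP + CR livers, against 213, 11.2, 15.4 and 53.1 CPM in MTP livers (log2 fold change −5.24, standard error 0.96, edgeR adjusted p = 0.0108), with MTP 1 far above the other MTP livers. Ms4a3, which marks precursors of granulocytes, had 0, 0, 0.194 and 0 CPM in MTP + CR livers, against 15.9, 2.39, 0.556 and 6.56 CPM in MTP livers (edgeR adjusted p = 0.0126). Its fitted log2 fold change of −6.78 depends on the handling of counts of 0. Ctsg, a protease of neutrophil granules (−5.53), Vcan, a matrix proteoglycan (−5.47), and Mmp8, a collagenase of neutrophils (−4.58), fell as well. Igfbp2, a binding protein of insulin-like growth factors, had 1683, 327, 483 and 1395 CPM in MTP + CR livers, against 8.27, 87.5, 13.2 and 225 CPM in MTP livers. Every MTP + CR liver lay above every MTP liver, although MTP 2 and MTP 4 lay far above MTP 1 and MTP 3 (log2 fold change 3.54, standard error 0.89, edgeR adjusted p = 0.0299). Cyp7b1, an oxysterol hydroxylase, had 241, 47.2, 257 and 71.4 CPM in MTP + CR livers, against 6.51, 17.9, 6.93 and 9.94 CPM in MTP livers (log2 fold change 3.91, standard error 0.76, edgeR adjusted p = 0.0138). Camk2b, a calcium-dependent kinase best known from neurons, had 6.67, 0, 5.36 and 0 CPM in MTP + CR livers, against 74.6, 71.6, 157 and 17.5 CPM in MTP livers (log2 fold change −4.73, standard error 1.13, edgeR adjusted p = 0.0269). It had no count in MTP + CR 2 and MTP + CR 4, and its highest MTP + CR liver lay below the lowest MTP liver. Neto2, an auxiliary subunit of glutamate receptors in the brain, fell by 4.65 on the log2 scale. It had 0.0646 to 0.717 CPM in MTP + CR livers and 0.0667 to 0.567 CPM in Control livers, so the limit of the filter holds for Neto2 too. Tnfrsf23, a decoy receptor for the death ligand TRAIL in mice, fell by 4.07. Among the called genes that fell, those of highest mean CPM, which is not corrected for gene length, included Abhd2 (a lipase, −1.17), Jak1 (a kinase of cytokine receptors, −1.29), Slc16a1 (a lactate and ketone transporter, −0.92) and Lpin2 (a phosphatidate phosphatase, −1.25). Apart from Dbp, Cyp2a4, F13a1 and Cidec, described below, the paragraph names 20 called genes, of which 7 kept the call whichever library was left out (Neto2, Hsd3b5, Slco1a1, mt-Ti, Ms4a3, Vcan and Chil3), 12 lost it without MTP 1 and 11 without MTP 3.

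**Figure D2:**
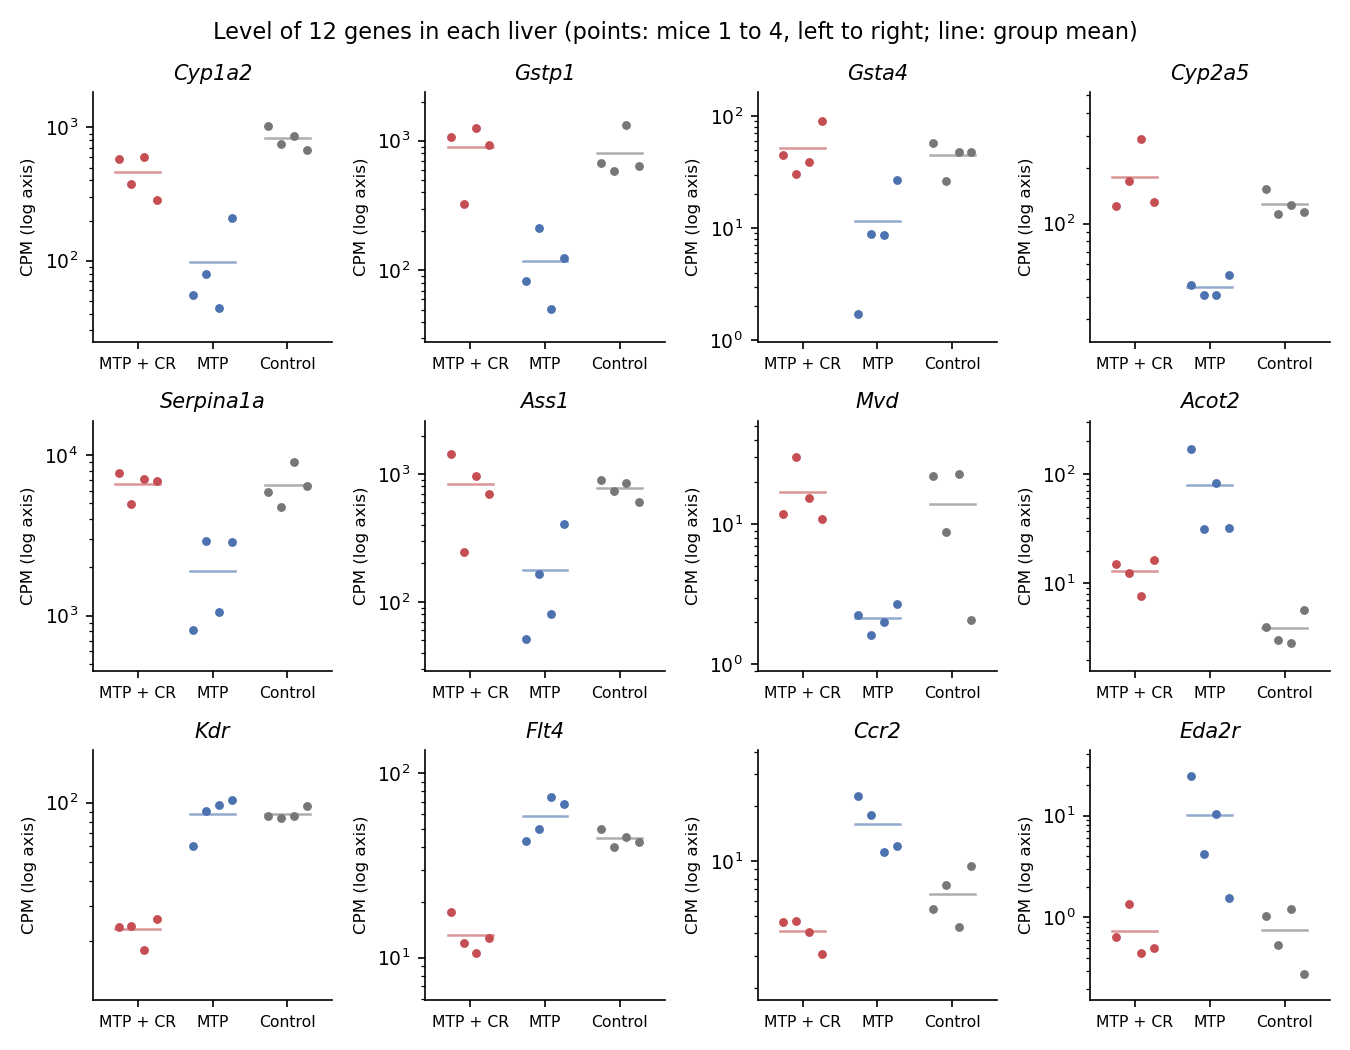
TMM-scaled CPM (log axis) of 12 genes in each liver, by group. Points are mice 1 to 4 from left to right and lines are group means. For Kdr all MTP + CR livers lie below all MTP and Control livers, whereas Ass1 in MTP 4 lies above the lowest MTP + CR liver.

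Part of the enzymes of drug metabolism rose in MTP + CR livers, among them the 3 genes that the study followed by qRT-PCR. Cyp1a2, a P450 enzyme that oxidises caffeine and aromatic amines (chromosome 9, 57676937 to 57683703 of mm10), had 584, 374, 600.3 and 287 CPM in MTP + CR livers, against 54.9, 80.1, 44.1 and 210.3 CPM in MTP livers. All MTP + CR livers lay above all MTP livers, with MTP 4 the highest of the MTP livers (log2 fold change 2.24, standard error 0.46, edgeR adjusted p = 0.0165). Gstp1, a glutathione transferase (chromosome 19, 4035407 to 4037985), had 1071, 327, 1263 and 922 CPM in MTP + CR livers, against 83, 214, 50.4 and 124 CPM in MTP livers (log2 fold change 2.93, standard error 0.51, edgeR adjusted p = 0.00933). Gsta4, the glutathione transferase that detoxifies products of lipid peroxidation (chromosome 9, 78182774 to 78209349), had 44.9, 30.3, 39 and 90.9 CPM in MTP + CR livers, against 1.72, 8.84, 8.73 and 26.7 CPM in MTP livers (log2 fold change 2.16, standard error 0.60, edgeR adjusted p = 0.0380). Control livers averaged 831 ± 150.5 CPM for Cyp1a2, 804 ± 345 CPM for Gstp1 and 44.7 ± 13.2 CPM for Gsta4 (mean ± SD, n = 4). Gsta4 lost its call in 9 of the fits with 1 library left out and in the fit without Control livers. Cyp1a2 lost its call without MTP 1 and without MTP 3, and Gstp1 kept its call under every alternative. Gstp1 has near-identical copies in tandem (Gstp2 and Gstp3), between which reads may have been split. Gapdh, the glycolytic enzyme used as the qRT-PCR standard, had 9.94, 2.09, 3.68 and 3.52 CPM in MTP + CR livers, against 3.69, 4.17, 4.45 and 4.73 CPM in MTP livers, which is low for this gene in every library. It has many pseudogene copies, so its counts are uncertain, and its log2 fold change was 0.17 (edgeR adjusted p = 0.785).

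Of 44 P450 genes of drug metabolism, 14 rose, none fell and 30 did not pass the test, and the median log2 fold change was 1.18 (0.79 under total-count scaling). The count ran from 3 without MTP 1 to 22 without MTP 4 when 1 library was left out. Cyp2a5, which oxidises nicotine and coumarin, had 125, 171, 290.1 and 131 CPM in MTP + CR livers, against 46.1, 40.6, 41 and 52.5 CPM in MTP livers (log2 fold change 1.99, standard error 0.28, edgeR adjusted p = 0.00317). The groups did not overlap, and the spread within MTP livers was small. Cyp2c67 rose by 2.53 and Cyp2c69 by 2.09 on the log2 scale, both members of the mouse Cyp2c cluster. Cyp2e1, the ethanol-inducible form that also activates acetaminophen, had 6883, 2784, 6879 and 4482 CPM in MTP + CR livers, against 532, 1203, 705 and 3258 CPM in MTP livers, with MTP 4 above MTP + CR 2 (log2 fold change 1.88, standard error 0.55, edgeR adjusted p = 0.0426). Cyp3a11, an abundant steroid and drug hydroxylase, had 6698 ± 408 CPM in MTP + CR livers and 2708 ± 1191 CPM in MTP livers and was not called (adjusted p = 0.0723). Cyp2c29, a target of the receptor CAR, was 1.73 between MTP + CR and MTP livers and −2.07 between MTP + CR and Control livers, both called.

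Conjugating enzymes followed in smaller number. Of 29 genes of glutathione transfer and metabolism, 6 (20.7%) rose and 1 (3.45%) fell, beside 5.94% and 6.51% of all genes. The median was 0.68, and the count of those higher ran from 1 without MTP 1 or MTP 3 to 13 without MTP 4. Beside Gstp1 and Gsta4, Gsta3 rose by 1.92 and Gstm6 by 1.13. The gene that fell was G6pdx, which makes NADPH for the reduction of glutathione, with 6.32, 33, 9.43 and 7.9 CPM in MTP + CR livers, against 111, 42.8, 63.5 and 24.3 CPM in MTP livers (log2 fold change −2.1, standard error 0.53, edgeR adjusted p = 0.0302). Of 30 glucuronosyl- and sulfotransferases, 6 rose and 1 fell (median 0.89; 1 without MTP 1, MTP 3 or MTP + CR 1 to 9 without MTP 4 for those higher). Sult5a1 rose by 4.21, Sult1c2 by 1.72 and Ugt3a1, which transfers N-acetylglucosamine, by 1.8. Its neighbour Ugt3a2, which uses glucose and xylose, moved the other way, with 17.2, 32.3, 32.6 and 13.1 CPM in MTP + CR livers, against 58, 140.4, 53.7 and 142 CPM in MTP livers (log2 fold change −2.05, standard error 0.51, edgeR adjusted p = 0.0296). Every MTP + CR liver was below every MTP liver for Ugt3a2, and between MTP + CR and Control livers it was −2.87, also called. Of 49 carboxylesterases, aldo-keto reductases and dehydrogenases, 9 rose and none fell (median 0.93; 3 without MTP 1, MTP 3 or MTP + CR 1 to 25 without MTP 4), with Ces3a at 2.07 and Ces3b, another carboxylesterase of the liver, at 2.52. Of a mixed list of 34 redox enzymes and targets of NRF2, the sensor of electrophiles, 5 (14.7%) rose and 1 (2.94%) fell. Its median of 0.50 was 0.01 under total-count scaling (0 without MTP 3 to 13 without MTP 4 for those higher). Prdx4, a peroxiredoxin of the endoplasmic reticulum, rose by 1.13. Osgin1, an oxidative stress response gene, had 503, 359.9, 559 and 28.3 CPM in MTP + CR livers, against 32, 34.9, 44.9 and 40.4 CPM in MTP livers (log2 fold change 3.25, standard error 0.79, edgeR adjusted p = 0.0284), and MTP + CR 4 lay below every MTP liver. Of the 19 called genes named for drug metabolism, 6 kept the call whichever library was left out (Gstp1, Cyp2a5, Cyp2c67, Cyp2c69, Ces3a and Sult1c2), while 12 lost it without MTP 1 and 13 without MTP 3.

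The promoters of a pair of enzymes that rose (Cyp2c67 and Ces3b) and a pair of vascular receptors that fell (Kdr and Flt1) are shown because they differ in base composition. Each sequence holds the 250 bases before the RefSeq start on GRCm38.p6 (the assembly of mm10), read 5′ to 3′ on the strand of the gene, with CG pairs and the motif TATAAA in capitals.
Cyp2c67, chr19:39649043-39649292, minus strand: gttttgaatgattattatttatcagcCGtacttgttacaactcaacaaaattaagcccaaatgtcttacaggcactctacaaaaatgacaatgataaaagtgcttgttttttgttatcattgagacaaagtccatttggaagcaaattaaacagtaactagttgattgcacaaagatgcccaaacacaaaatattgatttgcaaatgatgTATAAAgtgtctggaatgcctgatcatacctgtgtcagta
Ces3b, chr8:105083505-105083754, plus strand: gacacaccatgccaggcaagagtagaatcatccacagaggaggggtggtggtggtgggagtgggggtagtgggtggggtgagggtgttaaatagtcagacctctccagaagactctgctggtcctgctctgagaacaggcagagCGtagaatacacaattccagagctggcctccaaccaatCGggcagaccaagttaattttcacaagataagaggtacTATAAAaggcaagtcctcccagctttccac
Kdr, chr5:75978456-75978705, minus strand: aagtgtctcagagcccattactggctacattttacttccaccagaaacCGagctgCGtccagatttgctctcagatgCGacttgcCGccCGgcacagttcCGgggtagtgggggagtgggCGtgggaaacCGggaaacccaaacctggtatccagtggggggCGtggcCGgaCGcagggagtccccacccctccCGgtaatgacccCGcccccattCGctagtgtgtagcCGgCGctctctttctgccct
Flt1, chr5:147726012-147726261, minus strand: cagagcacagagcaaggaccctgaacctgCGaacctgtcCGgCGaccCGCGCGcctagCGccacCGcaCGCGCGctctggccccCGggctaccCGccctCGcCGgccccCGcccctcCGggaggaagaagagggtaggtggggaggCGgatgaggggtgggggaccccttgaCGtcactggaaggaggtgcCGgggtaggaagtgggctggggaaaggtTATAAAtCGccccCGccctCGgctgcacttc
These promoters hold 1 CG pair in Cyp2c67, 2 in Ces3b, 16 in Kdr and 23 in Flt1. Per 100 bases the values are 0.4, 0.8, 6.4 and 9.2, and that of Kdr equals the median of all genes given below. The motif TATAAA, searched on the strand of the gene only and within the 50 bases before the start, begins 40, 30 and 31 bases before the start of Cyp2c67, Ces3b and Flt1, and is not among these letters in Kdr. A RefSeq promoter within 1000 bases of the GENCODE start was found for 9795 of the genes tested. The motif was in 17 of 639 such genes that rose (2.66%), in 14 of 653 that fell (2.14%), in 165 of all 9795 (1.68%) and in 2.63% of the 32851 promoters in the RefSeq table. The median number of CG pairs per 100 bases was 5.2 in genes that rose, 6.8 in genes that fell and 6.4 in all. These are descriptions of letters, with no test.

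Transport and synthesis of bile acids were represented by a smaller set of calls. Of 28 drug and bile acid transporters, 7 (25%) rose and 3 (10.7%) fell, beside 5.94% and 6.51% of all genes. The median was 0.72, and the count of those higher ran from 1 without MTP 1 or MTP 3 to 13 without MTP 4. Slc10a1, the sodium-dependent carrier that takes bile acids up from blood, had 555, 371, 775 and 541 CPM in MTP + CR livers, against 54.5, 221, 111 and 373 CPM in MTP livers, with MTP 4 above MTP + CR 2 (log2 fold change 1.56, standard error 0.48, edgeR adjusted p = 0.0484). Slc22a18, an orphan carrier of an imprinted region, rose by 1.37, and Slco1b2, the carrier of bilirubin and statins, was 1.03 without passing the test (adjusted p = 0.125). Slc22a5, the carnitine carrier, had 36.4, 23.4, 34.3 and 27.5 CPM in MTP + CR livers, against 106, 63.2, 127 and 57.8 CPM in MTP livers (log2 fold change −1.54, standard error 0.35, edgeR adjusted p = 0.0230), with no overlap between the groups. Of 21 genes of bile acid synthesis, 5 rose and none fell (median 1.02; 1 without MTP 3 to 16 without MTP 4). Cyp27a1, the first enzyme of the acidic pathway, rose by 0.99. Cyp46a1, a cholesterol hydroxylase, had 15.2, 1.5, 0.646 and 0.79 CPM in MTP + CR livers, against 0, 0.167, 0.0856 and 0.108 CPM in MTP livers (log2 fold change 5.61, standard error 1.45, edgeR adjusted p = 0.0319), so that its mean rests on MTP + CR 1. The rate-limiting Cyp7a1 had 21.6 ± 9.65 CPM in MTP + CR livers and 37.9 ± 42.5 CPM in MTP livers (mean ± SD, n = 4), and Cyp8b1, which sets the share of cholic acid, had 663, 266, 277 and 583 CPM in MTP + CR livers, against 9.09, 89.7, 2.82 and 306 CPM in MTP livers. Neither was called (adjusted p = 0.402 and 0.148). All 5 genes of this paragraph that were called lost the call without MTP 1 and without MTP 3.

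Messages for plasma proteins made by hepatocytes were among those that rose. Of 48, 17 rose, none fell and 31 did not pass the test (median 1.12; 0 without MTP 3 to 29 without MTP 4). Serpina1a, 1 of several copies of the α1-antitrypsin gene of mice, had 7695, 4939.6, 7073 and 6894 CPM in MTP + CR livers, against 813, 2921, 1051 and 2859 CPM in MTP livers (log2 fold change 1.8, standard error 0.44, edgeR adjusted p = 0.0279). Its groups did not overlap, and its copies Serpina1c and Serpina1e, which share reads with it in part, rose by 2.02 and 1.71. Ahsg (fetuin-A) rose by 1.57 and Ttr, the carrier of thyroid hormone and of retinol-binding protein, by 1.27. Alb (serum albumin) had 53039 ± 10855 CPM in MTP + CR livers and 30303 ± 4055 CPM in MTP livers (mean ± SD, n = 4), without overlap between the groups, but was not called (log2 fold change 0.81, standard error 0.38, edgeR adjusted p = 0.154). As a share of all counts, without TMM factors, the groups overlapped. Alb then held 3.80% to 5.59% in MTP + CR livers and 3.00% to 4.47% in MTP livers (exact permutation test, p = 0.2). Of 53 genes of complement and coagulation, 7 (13.2%) rose and 5 (9.43%) fell, beside 5.94% and 6.51% of all genes. The count of those higher ran from 0 without MTP 3 or MTP + CR 1 to 18 without MTP 4. That of those lower ran from 3 without MTP 1, MTP 3 or certain other libraries to 5 without MTP 4. Coagulation factor F11, which hepatocytes secrete, had 95.7, 88.4, 103 and 55.4 CPM in MTP + CR livers, against 7.54, 23.8, 12.5 and 43.3 CPM in MTP livers, without overlap (log2 fold change 1.98, standard error 0.44, edgeR adjusted p = 0.0213). F2 (prothrombin) was 0.98 without passing the test (adjusted p = 0.0568). The genes that fell were F13a1, the A chain of factor XIII (−4.8), Plaur, the urokinase receptor (−2.63), Vwf (von Willebrand factor, −0.78), F8 (coagulation factor VIII) and Thbd, described below. Vwf and F8 are made by endothelium. F8 had 6.81, 9.38, 6.0 and 5.67 CPM in MTP + CR livers, against 34.7, 46.3, 32.4 and 25.4 CPM in MTP livers, again without overlap (log2 fold change −2.31, standard error 0.26, edgeR adjusted p = 0.00120). Of 30 acute phase genes, 1 (3.33%) rose and 1 (3.33%) fell (median −0.04), beside 5.94% and 6.51% of all genes. Crp (C-reactive protein) rose by 2.06 (edgeR adjusted p = 0.0455) and the gene that fell was Tnfaip3 (A20), described with NF-kB below. Il6st, the receptor subunit gp130 that interleukin-6 cytokines share, fell by 1.06. Saa1 (serum amyloid A) and Hp (haptoglobin) were −1.09 and 0.94 with adjusted p of 0.579 and 0.206. Apart from Thbd and Tnfaip3, the paragraph names 12 called genes, of which F8 and F13a1 kept the call whichever library was left out. Of the others, 8 lost it without MTP 1 and 10 without MTP 3.

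Part of the genes that break down amino acids and dispose of ammonia rose. Of 53 such genes, 10 rose and none fell (median 1.14; 0 without MTP 3 to 29 without MTP 4). Ass1, the urea cycle enzyme that joins citrulline and aspartate, had 1448, 247, 965 and 696 CPM in MTP + CR livers, against 51.5, 165, 79.5 and 409.8 CPM in MTP livers. MTP 4 lay above MTP + CR 2, and the other MTP livers below all MTP + CR livers (log2 fold change 2.25, standard error 0.62, edgeR adjusted p = 0.0361). Cps1, which starts the cycle, had 3142, 2616, 5714 and 1980.2 CPM in MTP + CR livers, against 209.8, 2310.0, 449 and 2564 CPM in MTP livers and was not called (adjusted p = 0.172), and MTP 2 and MTP 4 lay within the MTP + CR range. Cbs, which makes cystathionine from homocysteine, rose by 1.22 and Bckdha, a subunit of the branched-chain keto acid dehydrogenase, by 1.52. Of 28 genes of gluconeogenesis and the responses to fasting and insulin, 4 (14.3%) rose and 2 (7.14%) fell, beside 5.94% and 6.51% of all genes. The median was 0.50 (0.04 under total-count scaling). The count of those higher ran from 0 without MTP 1, MTP 3 or MTP + CR 1 to 12 without MTP 4. G6pc, the last step of glucose release, rose by 1.34, whereas Pck1, an earlier step, was 1.32 without passing the test (adjusted p = 0.0921). Pdk4, a fasting-induced kinase that shuts off pyruvate oxidation, had 11.8, 9.51, 1.81 and 10.1 CPM in MTP + CR livers, against 180.5, 19.2, 121 and 19.2 CPM in MTP livers (log2 fold change −3.36, standard error 0.82, edgeR adjusted p = 0.0286). Foxo1, a transcription factor of the fasted liver, fell by 1.12, and its highest MTP + CR liver was below its lowest MTP liver. Of 18 periportal genes 3 rose and none fell (median 1.3; 0 without MTP 1, MTP 3 or MTP + CR 1 to 9 without MTP 4), and of 27 pericentral genes 6 rose and none fell, with a median of 0.36 that was −0.15 under total-count scaling (0 without MTP 3 to 7 without MTP 4). Periportal Cyp2f2, a P450 enzyme, rose by 2.24 and pericentral Gulo, the last enzyme of vitamin C synthesis, by 1.31. Glul, the glutamine synthetase of the innermost pericentral hepatocytes, was 0.32 (adjusted p = 0.525; −0.17 under total-count scaling). None of the 8 called genes of this paragraph kept the call in all fits with 1 library left out, and all lost it without MTP 3.

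**Figure D3:**
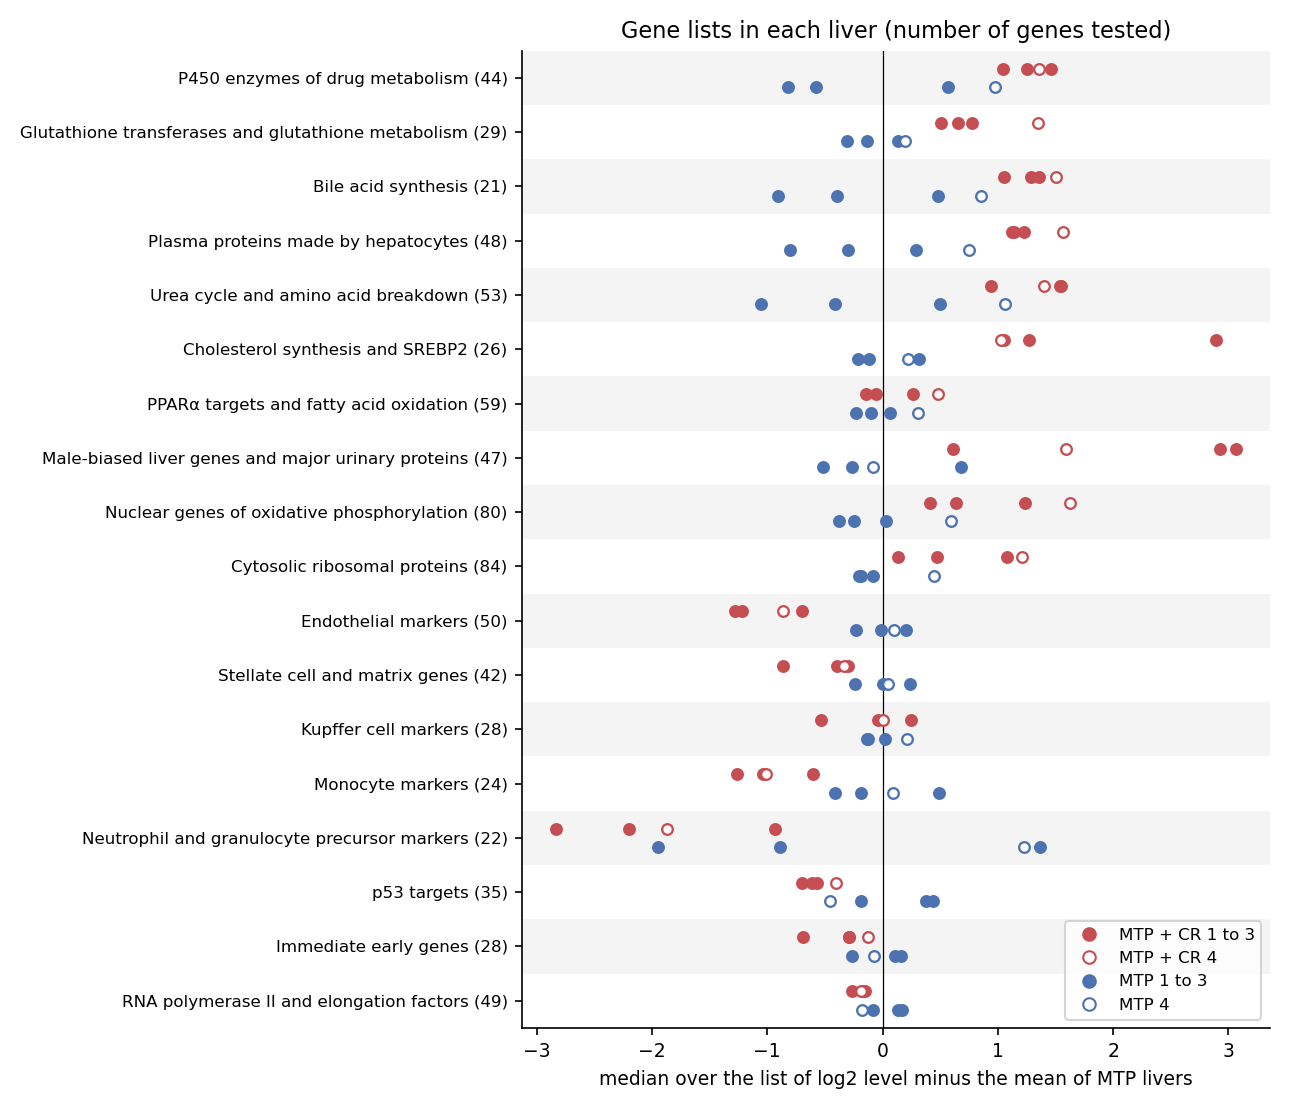
Median over each gene list of log2 level minus the mean of the MTP livers, 1 point per liver, with MTP + CR (red) above MTP (blue) in each list and the livers numbered 4 as open points. In the lists of P450 enzymes, bile acid synthesis, plasma proteins and the urea cycle MTP 4 lies to the right of MTP 1 to 3, whereas in the endothelial list all MTP + CR livers lie to the left of all MTP livers.

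Cholesterol synthesis had the highest share of members called among the lists of metabolism. Of 26 genes of cholesterol synthesis and other targets of SREBP2, the sterol-sensing transcription factor, 15 (57.7%) rose and none fell (median 1.77; 2 without MTP 1 or MTP 3 to 16 without MTP 4). Mvd, the enzyme that makes isopentenyl diphosphate, had 11.9, 30.2, 15.5 and 10.8 CPM in MTP + CR livers, against 2.25, 1.61, 2.01 and 2.69 CPM in MTP livers. The lowest MTP + CR liver was well above the highest MTP liver (log2 fold change 2.99, standard error 0.59, edgeR adjusted p = 0.0147). Insig1, which holds SREBP in the endoplasmic reticulum, had 109, 251, 186 and 86.2 CPM in MTP + CR livers, against 28.1, 41.6, 43.3 and 53.5 CPM in MTP livers (log2 fold change 1.93, standard error 0.43, edgeR adjusted p = 0.0211). Sqle, the squalene epoxidase, had 54.7, 251, 98.7 and 32.4 CPM in MTP + CR livers, against 63.3, 27.9, 23.4 and 14.6 CPM in MTP livers, and was not called (log2 fold change 1.76, adjusted p = 0.0913). MTP + CR 2 had the highest level of Mvd, Insig1 and Sqle in its group. The median of the list was −1.74 between MTP and Control livers and 0.05 between MTP + CR and Control livers.

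Genes of fatty acid metabolism gave calls in both directions. Of 26 genes that build fatty acids and triglycerides, 4 rose and 1 fell, with a median of 0.38 (−0.12 under total-count scaling; 0 without MTP 1 or MTP 3 to 6 without MTP 4 for those higher). Scd1, the stearoyl-CoA desaturase, had 360.4, 347, 199.6 and 465 CPM in MTP + CR livers, against 589.7, 303, 138 and 293 CPM in MTP livers, with wide overlap (log2 fold change 0.05, standard error 0.48, edgeR adjusted p = 0.948; −0.52 under total-count scaling). Control livers averaged 1893 ± 1096 CPM, and Scd1 was called lower than in Control livers both in MTP + CR (−2.46) and in MTP livers (−2.52). Fasn, the fatty acid synthase, was 0.32 (adjusted p = 0.703; −0.21 under total-count scaling), while Fads1, a desaturase of polyunsaturated fatty acids, rose by 1.28 and Dgat2, the last step of triglyceride synthesis, by 0.92. A mixed list held 59 genes of fatty acid oxidation and targets of PPARα, the receptor that drives this oxidation in fasting. Of these, 3 (5.08%) rose and 7 (11.9%) fell, beside 5.94% and 6.51% of all genes. The median of the list was 0.15 (−0.35 under total-count scaling). The count of those higher ran from 0 without MTP 1, MTP 3, MTP + CR 1 or MTP + CR 4 to 14 without MTP 4, and that of those lower from 2 without MTP 1, MTP 3 or MTP + CR 4 to 7 without MTP 4. Acot2, a mitochondrial acyl-CoA thioesterase, had 15, 12.5, 7.75 and 16.4 CPM in MTP + CR livers, against 170.4, 31.6, 82.8 and 32.3 CPM in MTP livers (log2 fold change −2.62, standard error 0.50, edgeR adjusted p = 0.0131). Its groups did not overlap, yet the MTP + CR livers still lay above the Control mean of 3.91 ± 1.33 CPM. Acot3, a peroxisomal thioesterase, fell by 2.31, and Cpt1a, which carries fatty acids into mitochondria, was −0.03 (adjusted p = 0.964). In this list 20 genes were higher between MTP and Control livers (2.61% of all genes) and 9 between MTP + CR and Control livers (0.329% of all genes), with medians of 0.89 and 1.13. Of 16 lipid droplet proteins 1 (6.25%) rose and 1 (6.25%) fell. These were members of 1 family, Cideb, which loads lipid onto lipoproteins, at 1.45, and Cidec, which fuses droplets into larger ones, with 4.68, 2.54, 1.74 and 12.1 CPM in MTP + CR livers, against 248, 42.1, 255 and 34.5 CPM in MTP livers (log2 fold change −4.78, standard error 0.78, edgeR adjusted p = 0.00714). Of the 8 called genes named for cholesterol and lipid, Acot2 and Cidec kept the call whichever library was left out, 5 lost it without MTP 1 and 6 without MTP 3.

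Genes that male mice express more than females in liver, a bias that pulsatile growth hormone maintains through STAT5b, had the largest median of the lists described so far. Of 47 such genes and major urinary proteins (pheromone carriers excreted by males), 19 rose and none fell (median 2.21; 5 without MTP 3 to 23 without MTP + CR 2). Mup10 had 942, 102, 979.7 and 191 CPM in MTP + CR livers, against 56.6, 91.6, 55.5 and 52.2 CPM in MTP livers (log2 fold change 3.11, standard error 0.60, edgeR adjusted p = 0.0137), with MTP + CR 2 and MTP + CR 4 far below MTP + CR 1 and MTP + CR 3. Mup20 (darcin), a member that females recognise, was 2.21 without passing the test (adjusted p = 0.0828). The Mup genes are near-identical copies, so reads may have been split between them. Of 26 female-biased genes 2 (7.69%) rose and 1 (3.85%) fell, among them Cyp2a4, a steroid hydroxylase, with 9.3, 19.4, 2.65 and 27.9 CPM in MTP + CR livers, against 0.983, 1.61, 1.03 and 1.24 CPM in MTP livers (log2 fold change 3.61, standard error 1.05, edgeR adjusted p = 0.0428). Of 30 genes of the growth hormone and IGF1 axis 4 (13.3%) rose and 1 (3.33%) fell (0 without MTP 1 or MTP 3 to 8 without MTP 4 for those higher). Igfbp4, another IGF binding protein, rose by 2.01, while Igf1 had 1044, 771, 972 and 394 CPM in MTP + CR livers, against 148, 482, 115 and 496 CPM in MTP livers and was not called (adjusted p = 0.0702). Among 36 hepatocyte transcription factors 3 (8.33%) rose and 1 (2.78%) fell (0 without MTP 1 or MTP 3 to 9 without MTP 4 for those higher), with Cebpa, a factor of hepatocyte identity, at 1.52 and Foxa3, a pioneer factor, at 1.28. The transcription factor that fell lost its call whichever library was left out. Of 25 clock genes 1 (4%) rose and 2 (8%) fell (0 without MTP 3, MTP + CR 1 or MTP + CR 4 to 5 without MTP 4 for those lower). Over all genes tested 5.94% were higher and 6.51% lower. Dbp, an output of the clock that peaks near the end of the day, had 5.68, 2.35, 33.3 and 4.24 CPM in MTP + CR livers, against 0.696, 0.501, 0.556 and 1.02 CPM in MTP livers (log2 fold change 4.03, standard error 0.76, edgeR adjusted p = 0.0126). MTP + CR 3 was the highest of all livers for Dbp, and the hour of killing is not given in the sources used here. Per1, a core clock gene, was −1.04 (adjusted p = 0.0557). Of the 6 called genes of this paragraph, Mup10 and Dbp kept the call whichever library was left out, 4 lost it without MTP 1 and 4 without MTP 3.

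Many endothelial markers fell, and the calls named here did not rest on any single liver. Of 50 endothelial markers, 29 (58%) fell, none rose and 21 did not pass the test (median −1.01). The count of those lower ran from 15 without MTP 3 to 28 without MTP 4, was 26 without both livers numbered 4, and the median stayed between −1.12 and −0.89 when 1 library was left out. Kdr, the main receptor for vascular endothelial growth factor (VEGF) on endothelium (chromosome 5, 75932827 to 75978458 of mm10), had 23.6, 23.8, 18 and 25.8 CPM in MTP + CR livers, against 60.5, 90.7, 97.8 and 103 CPM in MTP livers. No liver overlapped (log2 fold change −1.95, standard error 0.21, edgeR adjusted p = 0.00120), and Control livers had 87.9 ± 5.9 CPM. Flt4, the VEGF-C receptor of lymphatic and sinusoidal endothelium (chromosome 11, 49609263 to 49652739), had 17.7, 12.1, 10.6 and 12.9 CPM in MTP + CR livers, against 42.6, 49.7, 74.2 and 67.8 CPM in MTP livers (log2 fold change −2.14, standard error 0.24, edgeR adjusted p = 0.00120). Flt1, another VEGF receptor, had 5.32, 4.56, 3.23 and 5.38 CPM in MTP + CR livers, against 20.6, 15, 25.1 and 15.7 CPM in MTP livers (log2 fold change −2.05, standard error 0.25, edgeR adjusted p = 0.00140). For all 3 receptors each MTP liver, MTP 4 included, lay above each MTP + CR liver. Pecam1, an adhesion molecule of all endothelium, fell by 1.37, and Mrc1, the mannose receptor of sinusoidal endothelium and macrophages, had 44.8, 34.5, 39.4 and 33.4 CPM in MTP + CR livers, against 91.6, 110.2, 134 and 94.1 CPM in MTP livers (log2 fold change −1.5, standard error 0.22, edgeR adjusted p = 0.00408). Outside the list, Thbd (thrombomodulin), the endothelial protein that turns thrombin towards anticoagulation, fell by 2.19 and Hspg2 (perlecan), a proteoglycan of basement membranes, by 1.56. All 7 genes of this paragraph, and F8 above, kept the call whichever library was left out.

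Against saline, the endothelial markers gave 0 higher and 0 lower calls in MTP livers (edgeR, with 1 higher and 4 lower at an unadjusted p under 0.05, a median of −0.09 and 2.78% of all genes called lower) and 0 higher and 21 lower in MTP + CR livers (median −1.14), beside 1.00% of all genes called lower. Between MTP + CR and Control livers the log2 fold change was −1.95 for Kdr, −2.69 for F8 and −2.14 for Flt1. Between MTP and Control livers it was −7.02e-04 for Kdr, −0.38 for F8 and −0.09 for Flt1. The summed level of 12 endothelial markers was 230 to 351 CPM in MTP + CR livers, against 590 to 758 CPM in MTP livers (exact permutation test, p = 0.0286), and 689 to 790 CPM in Control livers. Cldn5, a tight junction protein, Egfl7, S1pr1 and Ushbp1 had positive values without passing the test, as the plot of endothelial markers shows. The endothelial markers had a median length of 6735.5 bases as the deposited values imply, and long genes were lower in MTP + CR livers as described below. With the trend over gene length removed the list had 0 higher, 24 lower and a median of −1.01.

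**Figure D4:**
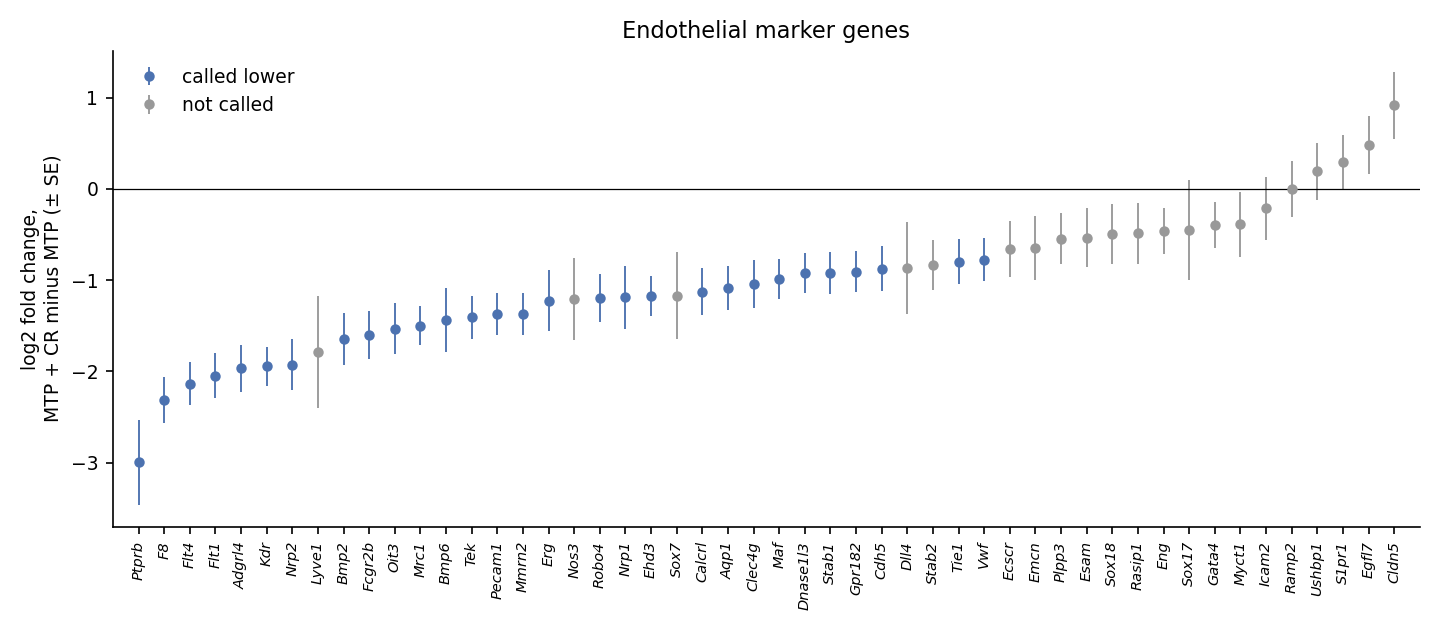
Log2 fold change of MTP + CR over MTP livers for the 50 endothelial markers tested, with standard errors from edgeR, in order of size. Blue points are the 29 genes called lower and grey points the 21 not called, and 45 of the 50 points lie below 0.

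Genes of other non-parenchymal cells differed from one another. Of 28 Kupffer cell markers 4 (14.3%, beside 6.51% of all genes) fell and none rose, with a median of 0.03 (−0.52 under total-count scaling). Clec4f, the lectin that marks Kupffer cells, had 292, 77.5, 141 and 316 CPM in MTP + CR livers, against 127, 120.3, 167 and 191 CPM in MTP livers (adjusted p = 0.406; log2 fold change 0.45, −0.08 under total-count scaling), and the summed level of 10 Kupffer markers was 506 to 1141 CPM in MTP + CR livers, against 561 to 988 CPM in MTP livers (exact permutation test, p = 0.4). Among the members that fell were Tlr4, the receptor of bacterial lipopolysaccharide, which fell by 1.53, and Cybb, a subunit of the phagocyte NADPH oxidase, with 24.1, 27.2, 28.1 and 21.8 CPM in MTP + CR livers, against 76.6, 51.1, 53.4 and 57.5 CPM in MTP livers (log2 fold change −1.24, standard error 0.22, edgeR adjusted p = 0.0104). Both are present in Kupffer cells and in other cells, and the cells behind these falls were not tested. Of 24 monocyte markers 10 fell and 1 rose (median −1.01; 4 without MTP 1 to 10 without MTP 4 or Control 2 for those lower). Ccr2, the chemokine receptor of monocytes drawn from blood, had 4.61, 4.69, 4.07 and 3.09 CPM in MTP + CR livers, against 22.7, 17.9, 11.2 and 12.1 CPM in MTP livers (log2 fold change −1.95, standard error 0.31, edgeR adjusted p = 0.00714), against 6.61 ± 2.22 CPM in Control livers. Of 27 markers of neutrophils and their precursors, 22 passed the filter on low counts, Ms4a3 among them only through its MTP livers. A member kept in this way can hardly be called higher, so the filter in part sets the direction of this list. The same limit holds in large part for Ctsg, Mmp8, Vcan and Neto2, described above. Of the 22, 7 fell and none rose (median −2.59; 2 without MTP 1 or MTP + CR 1 to 9 without Control 2). Anxa1, an anti-inflammatory protein of granulocytes, had 5.89, 3.45, 4.65 and 5.1 CPM in MTP + CR livers, against 44.7, 15.8, 10.3 and 38.5 CPM in MTP livers (log2 fold change −2.52, standard error 0.46, edgeR adjusted p = 0.0108), and Mpo (myeloperoxidase) fell by 4.33, with MTP 3 below the highest MTP + CR liver. The summed neutrophil markers were 60.9 to 433 CPM in MTP + CR livers and 531 to 1326 CPM in MTP livers (exact permutation test, p = 0.0286), and 72.4 to 2145 CPM in Control livers. Of 33 lymphocyte markers 1 fell, Ptprc (CD45), which all leukocytes carry (−1.28), and none rose. The median of the list was nonetheless 0.71 (0.20 under total-count scaling), with 27 members positive and 6 negative. When 1 library was left out, 0 to 6 members were called higher, the highest count without MTP 4.

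Of 42 genes of stellate cells and matrix, 11 (26.2%, beside 6.51% of all genes) fell and none rose, with a median of −0.40. The count ran from 4 without MTP 3 to 12 without MTP 4. The list had a median length of 8516.5 bases. With the trend over gene length removed 7 members were lower, with a median of −0.41. Hgf (hepatocyte growth factor), which stellate cells supply to hepatocytes, had 6.95, 9.71, 5.68 and 0.862 CPM in MTP + CR livers, against 36, 33.5, 36.9 and 22.6 CPM in MTP livers (log2 fold change −2.47, standard error 0.48, edgeR adjusted p = 0.0139). MTP + CR 4 was far below the rest, and the other MTP + CR livers were below every MTP liver as well. Pdgfra, a receptor for platelet-derived growth factor, had 7.59, 7.62, 5.75 and 5.89 CPM in MTP + CR livers, against 24.6, 17.9, 22.5 and 12.5 CPM in MTP livers (log2 fold change −1.53, standard error 0.25, edgeR adjusted p = 0.00746). Timp3, an inhibitor of matrix proteases, fell by 1.52 and Dcn (decorin) by 1.03. The summed stellate markers were 253 to 462 CPM in MTP + CR livers, against 430 to 559 CPM in MTP livers (exact permutation test, p = 0.0571). Of the 10 called genes named for immune and stellate cells, Ccr2, Cybb, Anxa1, Hgf, Pdgfra and Timp3 kept the call whichever library was left out, 4 lost it without MTP 1 and 1 without MTP 3.

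Targets of p53, the factor that DNA damage and transcription block activate, fell in part in MTP + CR livers. Of 35, 11 fell and 1 rose (median −0.85; 1 without MTP 1 or MTP 3 to 14 without MTP 4 for those lower). Eda2r, a receptor of the TNF family, had 0.639, 1.37, 0.452 and 0.503 CPM in MTP + CR livers, against 24.5, 4.17, 10.4 and 1.56 CPM in MTP livers (log2 fold change −3.76, standard error 0.76, edgeR adjusted p = 0.0159). MTP 1 and MTP 3 were above MTP 2 and MTP 4, no liver overlapped, and Control livers had 0.761 ± 0.429 CPM. Tnfrsf10b, the TRAIL death receptor of mice, had 1.56, 1.04, 0.581 and 0.862 CPM in MTP + CR livers, against 29.5, 2.73, 19.4 and 1.18 CPM in MTP livers, so that MTP 4 lay inside the MTP + CR range (log2 fold change −3.7, standard error 0.80, edgeR adjusted p = 0.0201). Polk, a polymerase that copies past damaged bases, fell by 2.76, Trp53inp1, a stress-induced partner of p53, by 1.59 and Mdm2, the ubiquitin ligase that removes p53, by 0.98. Cdkn1a (p21), the arrest gene, had 97.2 ± 52.4 CPM in MTP + CR livers and 210.2 ± 35.1 CPM in MTP livers (mean ± SD, n = 4) and was not called (adjusted p = 0.146), although every MTP + CR liver was below every MTP liver. Of 37 death receptors and effectors 2 (5.41%) rose and 5 (13.5%) fell, beside 5.94% and 6.51% of all genes. The count of those lower ran from 0 without MTP 1, MTP 3 or MTP + CR 4 to 6 without MTP 4. Casp8, the caspase of death receptors, fell by 1.17 and Ripk1, a kinase of the same complex, by 0.96, whereas Gsdme, a pore-forming protein cut by caspases, rose by 1.23.

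Immediate early genes, whose messages are short-lived, gave 6 lower and no higher calls among 28 (median −0.50; 2 without MTP 1, MTP 3 or certain other libraries to 8 without MTP 4). Fosl2, a partner of Jun, had 8.16, 9.45, 11 and 11.4 CPM in MTP + CR livers, against 27.5, 36.6, 22.7 and 25.9 CPM in MTP livers (log2 fold change −1.49, standard error 0.26, edgeR adjusted p = 0.0102). Atf3, a stress-induced transcription factor, had 3.55, 2.02, 2.84 and 2.51 CPM in MTP + CR livers, against 38.3, 4.78, 21.4 and 4.25 CPM in MTP livers (log2 fold change −2.65, standard error 0.67, edgeR adjusted p = 0.0302). Klf6 fell by 1.55, and Fos was −1.1 without passing the test (adjusted p = 0.0898). Of 32 initiation factors including TFIIH, the complex that triptolide acts on, 3 (9.38%) fell and none rose (median −0.27; 0 without MTP 1, MTP 3 or MTP + CR 4 to 7 without MTP 4 for those lower). Of 49 subunits and elongation factors of RNA polymerase II 5 (10.2%) fell and 1 rose (median −0.16; 0 without MTP 1, MTP 3, MTP + CR 1 or MTP + CR 4 to 12 without MTP 4 for those lower). Over all genes tested 6.51% were lower. Ercc3, which encodes XPB, the target of triptolide, had 16.7, 29.3, 20.6 and 24 CPM in MTP + CR livers, against 44.1, 27, 37.4 and 25.6 CPM in MTP livers (adjusted p = 0.107), and the groups overlapped. Gtf2h1, another TFIIH subunit, fell by 0.86. Polr2a, the catalytic subunit of RNA polymerase II, had 35.3, 111, 60.9 and 50.8 CPM in MTP + CR livers, against 233, 182, 292 and 106 CPM in MTP livers, with MTP 4 below MTP + CR 2 (log2 fold change −1.66, standard error 0.36, edgeR adjusted p = 0.0201), and Control livers had 51.1 ± 6.19 CPM. Polr2b, the second largest subunit, fell by 1.12. Of the 14 called genes named for p53, cell death, early response and transcription, Eda2r, Fosl2, Klf6 and Gsdme kept the call whichever library was left out, 10 lost it without MTP 1 and 10 without MTP 3. Gsdme was not called under total-count scaling, on log2(FPKM + 1) or on log2(FPKM + 0.1).

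A few chaperones of the endoplasmic reticulum rose and a few genes of inflammatory signalling fell. Of 34 genes of endoplasmic reticulum stress and the integrated stress response 6 rose and 2 fell, with a median of 0.27 (−0.21 under total-count scaling; 0 without MTP 1 or MTP 3 to 10 without MTP 4 for those higher). Manf, a secreted protein of the stressed reticulum, had 177, 159.7, 203 and 249 CPM in MTP + CR livers, against 31.9, 46.2, 24.4 and 84.1 CPM in MTP livers, without overlap (log2 fold change 2.08, standard error 0.42, edgeR adjusted p = 0.0153). Pdia6, a disulfide isomerase, rose by 1.19, Hspa5 (BiP), the main chaperone of the reticulum, by 0.96 and Atf4, the transcription factor of the integrated stress response, by 1.09. Of 36 heat shock genes 4 (11.1%, beside 5.94% of all genes) rose and none fell, with a median of −0.04. The count ran from 0 without MTP 1, MTP 3 or certain other libraries to 5 without MTP 4. Hsp90aa1, the inducible cytosolic HSP90, had 78.6, 165, 103 and 167 CPM in MTP + CR livers, against 600.3, 328, 485 and 107 CPM in MTP livers and was not called (adjusted p = 0.0556), with MTP 4 inside the MTP + CR range. Of 43 genes of NF-kB, cytokine and IL-17 signalling 7 (16.3%) fell and none rose, with a median of −0.48. The count ran from 0 without MTP 1, MTP 2, MTP 3 or MTP + CR 1 to 10 without MTP 4. Over all genes 6.51% were lower. The list had a median length of 6453 bases. With the trend over gene length removed 2 members were lower (median −0.33), and Il17ra, Nfkb1 and Tnfaip3, named next, lost the call. Il17ra, the receptor of interleukin-17, had 23.7, 19.7, 26.3 and 14.6 CPM in MTP + CR livers, against 43.2, 33.4, 43 and 28.6 CPM in MTP livers (log2 fold change −0.81, standard error 0.23, edgeR adjusted p = 0.0374), Nfkb1, a precursor of the p50 subunit, fell by 0.71 and Tnfaip3 (A20), which dampens NF-kB, by 1.18. Of 47 interferon-stimulated genes none was called in either direction by edgeR, 4 were higher and 2 lower at an unadjusted p under 0.05, and DESeq2 called 3 higher and 1 lower. All 7 called genes of this paragraph lost the call without MTP 1 and without MTP 3.

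Part of the nuclear genes of oxidative phosphorylation rose, and a smaller share of the ribosomal protein genes. The median lengths of these lists were 2670.5 and 3168 bases. Of 80 nuclear genes of oxidative phosphorylation 31 rose and none fell (median 0.94; 0 without MTP 1, MTP 3 or MTP + CR 1 to 58 without MTP 4). Under total-count scaling the list had 10 higher, 0 lower and a median of 0.47. Uqcrq, a subunit of complex III, had 486, 197, 277 and 600.1 CPM in MTP + CR livers, against 62.2, 120.1, 104 and 170.3 CPM in MTP livers, without overlap (log2 fold change 1.77, standard error 0.38, edgeR adjusted p = 0.0189). Ndufb2, of complex I, rose by 1.61 and Atp5d, of the ATP synthase, by 1.49. Of 84 cytosolic ribosomal protein genes 8 (9.52%) rose and none fell, with a median of 0.78 and Rpl24 at 1.18. The share called higher was 5.94% over all genes, and 9.47% and 7.42% in the 2 shorter quartiles of gene length described below. The count of 8 ran from 0 without MTP 1, MTP 2, MTP + CR 1 or MTP + CR 4 to 42 without MTP 4. Rpl10 was 0.68 without passing the test (adjusted p = 0.0659). Under total-count scaling the ribosomal list had 1 higher, 1 lower and a median of 0.27. Of 13 messages of the mitochondrial genome 1 rose, mt-Nd3, a subunit of complex I, with 729, 337, 313 and 611 CPM in MTP + CR livers, against 158, 208, 187 and 226 CPM in MTP livers (log2 fold change 1.35, standard error 0.31, edgeR adjusted p = 0.0230), and none fell. Over all tested genes the median log2 fold change was 0.32 in the shortest quartile (59 to 2997 bases), 0.10 and −0.10 in the next quartiles and −0.34 in the longest (from 9281 bases). In the shortest quartile 9.47% of genes were higher and 3.42% lower, and in the longest 2.55% were higher and 10.2% lower. Across genes, which are not independent replicates, Spearman's rho between fold change and length was −0.28 (a description, with no p).

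The relation of level to length varied from liver to liver. Against the mean of all libraries, Spearman's rho with length over genes was −0.27, −0.06, −0.10 and −0.39 in MTP + CR 1 to MTP + CR 4, against 0.16, 0.18, 0.20 and −0.12 in MTP 1 to MTP 4 (exact permutation test of the difference, p = 0.0857). MTP 4 thus lay among the MTP + CR livers in this measure, and MTP + CR 4 was the lowest. With each library's trend over length removed, 1556 genes were called, 1339 of them in the same direction as before. The oxidative phosphorylation list then had 18 higher, 0 lower and a median of 0.74, the ribosomal list 5 higher, 0 lower and a median of 0.57, the P450 list 8 higher, 0 lower and a median of 1.09 and the p53 list 1 higher, 9 lower and a median of −0.64. The part of length in the remaining calls was not tested. None of the 5 called genes named for oxidative phosphorylation and ribosomes kept the call in all fits with 1 library left out: all lost it without MTP 1 and 4 without MTP 3.

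**Figure D5:**
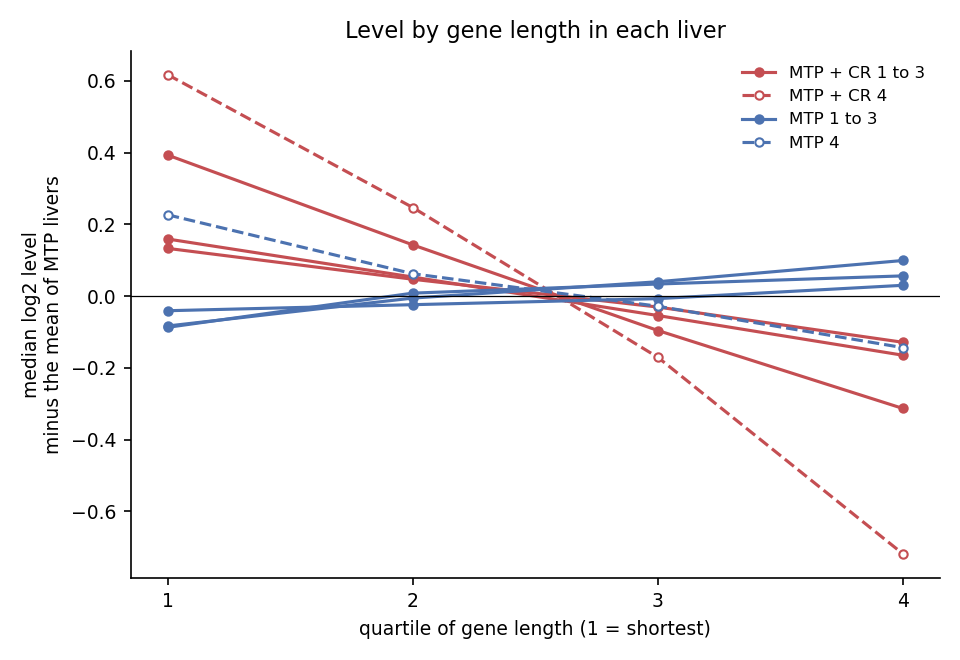
Median log2 level minus the mean of the MTP livers (y axis) by quartile of gene length (x axis, 1 is the shortest), 1 line per liver, with MTP + CR in red and MTP in blue. MTP + CR 4 (red, dashed) lies at 0.62 in quartile 1 and at −0.72 in quartile 4, and MTP 4 (blue, dashed) lies close to MTP + CR 2 and MTP + CR 3.

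Without MTP 4 and MTP + CR 4 the following lists had more calls than with all livers, with fewer livers behind each. The P450 list then had 20 higher, 0 lower and a median of 1.55, the plasma protein list 26 higher, 0 lower and a median of 1.34 and the urea cycle list 26 higher, 0 lower and a median of 1.53. Cholesterol synthesis had 16 higher, 0 lower and a median of 1.98, the male-biased list 20 higher, 0 lower and a median of 2.71, oxidative phosphorylation 52 higher, 0 lower and a median of 0.92 and the p53 list 1 higher, 15 lower and a median of −0.79. Under total-count scaling, where the calls over all genes were mostly lower as well, the P450 list had 9 higher, 0 lower and a median of 0.79, initiation factors 0 higher, 15 lower and a median of −0.81, RNA polymerase II and elongation factors 1 higher, 23 lower and a median of −0.70 and the p53 list 0 higher, 21 lower and a median of −1.37. In lists where edgeR called members in 1 direction only, 0 to 4 members lay in the other direction at an unadjusted p under 0.05, and DESeq2 called 0 to 3 of them. Both of these highest counts were those of lymphocyte markers that were higher, the count of 3 by DESeq2 being shared with markers of bile duct cells that were lower.

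Of 45 cell cycle genes 2 (4.44%) rose and 4 (8.89%) fell (median −0.40; 0 without MTP 1, MTP 3 or certain other libraries to 6 without MTP 4 for those lower). Tk1, the thymidine kinase of S phase, had 25.1, 10.8, 20.6 and 19.96 CPM in MTP + CR livers, against 4.59, 3.5, 2.52 and 6.34 CPM in MTP livers (log2 fold change 2.17, standard error 0.38, edgeR adjusted p = 0.00933), while Mcm4, a subunit of the replicative helicase, fell by 1.44. Top2a, a topoisomerase of dividing cells, was −0.80 (adjusted p = 0.332). Of 27 histone genes 3 (11.1%) fell and 1 (3.7%) rose (0 without MTP 1, MTP 3 or certain other libraries to 10 without MTP 4 for those lower). Over all genes 5.94% were higher and 6.51% lower. H2ac6 had 0.355, 1.04, 0.323 and 2.23 CPM in MTP + CR livers, against 8.64, 22.6, 6.72 and 2.04 CPM in MTP livers (log2 fold change −3.34, standard error 0.77, edgeR adjusted p = 0.0241), H4c3 fell by 3.1 and H1f2, a linker histone, rose by 1.61. Messages of replication-dependent histones mostly lack a poly(A) tail, so a library made from mRNA catches them only in part. Of the 5 called genes of this paragraph Tk1 kept the call whichever library was left out, and the other 4 lost it without MTP 1 and without MTP 3.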

How the data were processed

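Total RNA of 12 livers was made into mRNA libraries. The authors deposited counts per gene, not normalised, and FPKM values. Their methods name Hisat2 2.0.5 and Stringtie, and the labels name Bowtie 0.12.2 and mm10. The annotation release is not given in the sources used here. Samples were grouped by their labels. Library totals ran from 15509226 to 18430566.

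Counts were filtered with filterByExpr (minimum count 10) and fitted over all 12 libraries with edgeR 4.0.16 (R 4.3.3), TMM factors and the quasi-likelihood test, with Benjamini-Hochberg adjustment over 15197 genes. A gene was called at a fold above 1.5 and an adjusted p under 0.05. The standard error is the log2 fold change over the square root of F. Gene length was read from counts, FPKM and totals. Levels of different genes were not compared, except that mean CPM, which is not corrected for gene length, ranked the most abundant called genes. Scripts were tested on simulated data. P-values measure the spread between mice of this study.

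The genes named were those the study names, the 10 largest rises and falls without overlap at 5 CPM or more, the 8 most abundant called genes in each direction, and for each list its first 2 genes and the called members of smallest adjusted p (4 at most). Plaur, Vwf, Cldn5, Egfl7, S1pr1 and Ushbp1 were picked after their values were seen. Some genes that the rule takes are not reported here. The members and the lists were chosen with earlier results of these data known. Reads of near-identical copies (Gstp, Mup, Serpina1, Ces3, Cyp2a, Cyp2c, Acot and histone genes) may have been split, and their values are uncertain. Alternatives were other factors (RLE, upper quartile, total count), no filter or 1 CPM, DESeq2 1.42.0, limma-voom (limma 3.58.1), log2(FPKM + 1) and log2(FPKM + 0.1) with limma, only the 8 libraries, a replicate block, removal of the trend over gene length and each library left out. Omission of MTP 4 and MTP + CR 4 together was chosen after seeing the data.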

Additional observations from a re-analysis of the deposited data

Results flagged for a closer look

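In 15 of 416 groups of 4 livers checked, 1 liver stood apart from the other 3 by Dixon's test at the 95% level, a test that chance passes in about 1 of 20 groups. The values are given without an explanation, and their causes were not tested. Osgin1 was lowest in MTP + CR 4 at 28.3 CPM, against 360 to 559 CPM in the other MTP + CR livers. Casp8 was also lowest in MTP + CR 4, at 27.2 CPM, the others lying at 37.7 to 40.1 CPM. Vwf was highest in MTP + CR 4 at 16.9 CPM (others 9.06 to 9.23 CPM). Ms4a3 was highest in MTP + CR 3 at 0.194 CPM and at 0 in the other MTP + CR livers. In MTP + CR 3, Saa1 was highest at 932 CPM (others 191 to 250.2 CPM) and Pdk4 lowest at 1.81 CPM (others 9.51 to 11.8 CPM). Among the MTP livers, MTP 4 was highest for Slc22a18 at 80.6 CPM (others 36.8 to 40.7 CPM) and for Gulo at 288 CPM (others 157 to 163 CPM), and MTP 2 was highest for Mup10 at 91.6 CPM (others 52.2 to 56.6 CPM). The rank correlation of level with gene length was lowest in MTP 4 at −0.12, with 0.16 to 0.20 in the other MTP livers.

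Medians of 5 gene lists, as log2 level minus the mean of the MTP livers, also stood apart in 1 MTP + CR liver. The gluconeogenesis list was highest in MTP + CR 4 at 0.94 (others 0.45 to 0.48). The cholesterol list was highest in MTP + CR 2 at 2.89 (others 1.03 to 1.27), as was the list of female-biased genes at 1.61 (others 0.11 to 0.25). The clock list was highest in MTP + CR 3 at 0.092 (others −0.45 to −0.39), and a list of long nuclear RNAs in MTP + CR 1 at 1.04 (others 0.16 to 0.30).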

How the results depend on the processing

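The count of 1892 called genes (903 higher, 989 lower) was 3319 (1737 and 1582) with DESeq2, 3228 (1732 and 1496) with limma-voom, 1143 (556 and 587) without a filter on low counts, 320 (124 and 196) when only the 8 libraries were fitted, and 3369 (1826 and 1543) without MTP 4 and MTP + CR 4. Total-count scaling gave 4529 (414 and 4115, 9.14% higher against 47.7%), log2(FPKM + 1) 3376 (437 and 2939, 12.9% higher) and log2(FPKM + 0.1) 4491 (505 and 3986, 11.2% higher). Leaving out 1 library gave 261 to 4009 calls, with 87 to 2196 higher and 174 to 1813 lower. The lowest counts came without MTP 3 and the highest without MTP 4. Of the 320 calls from 8 libraries 316 were shared in direction. Mice of different groups share only a number (correlations of same-numbered MTP + CR and MTP livers were 0.04, 0.14, 0.03 and 0.20), and a replicate block gave 1428 calls, 1279 of them shared.

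Of the 126 called genes named, 37 kept the call whichever library was left out. None of these 126 changed direction under the alternatives run. Values that did so belong to genes not called. Under total-count scaling, log2(FPKM + 1) and log2(FPKM + 0.1) the log2 fold change was −0.34, −0.15 and −0.44 for Gapdh, −0.17, −0.13 and −0.13 for Glul, −0.52, −0.33 and −0.33 for Scd1, −0.21, −0.26 and −0.30 for Fasn and −0.081, −0.23 and −0.24 for Clec4f. Gapdh was −0.00217 with a replicate block and −0.046 with limma-voom. Cpt1a was 0.087 with a replicate block, 0.20 with limma-voom, 0.10 with the length trend removed and 0.31 without both livers numbered 4, where Scd1 was −0.16. With 1 library left out, the values ran from −0.45 to 0.43 for Gapdh, −1.16 to 0.36 for Cyp7a1, −0.21 to 0.48 for Scd1 and −0.24 to 0.23 for Cpt1a. The causes were not tested. With 4 livers a group, depth of 15509226 to 18430566 counts limits genes of few counts, and the spread between livers limits the rest.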
